A study of Homo sapiens with 8 samples.

Results

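The Aurora kinases and the chromosomal passenger complex were followed here through 8 genes: AURKA with its partners TPX2 and BORA, the 4 passenger subunits AURKB, INCENP, BIRC5 and CDCA8, and the histone kinase HASPIN. They were taken from the expression table by gene name alone, 8 of 38148 rows, and their measured values played no part in that rule. The cells were HT29, an established human colorectal cancer line, either left untreated or given 1 μM selumetinib, an inhibitor of the kinase MEK, for 24 h. All of them were glyoxal fixed, stained for cyclin B1 (the protein of CCNB1) and flow sorted on that stain, and poly(A) mRNA-seq of the CCNB1-negative and the CCNB1-positive fraction gave 4 groups of 2 libraries. Nothing in the labels says that the libraries of a group came from separate cultures, so p-values measure the spread between these libraries, which may be technical.

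Sample titles and sample descriptions disagree for all 8 libraries, each title naming the other treatment and the other fraction. The descriptions, which are also the column names of the table, were followed. If the titles were right instead, the CCNB1-negative response below would be the CCNB1-positive one with its sign turned, and the reverse. The fraction differences would swap between untreated and treated cells with signs turned, and the interaction would not move. By the descriptions, CCNB1 mRNA was higher in the CCNB1-positive than in the CCNB1-negative libraries by 2.09 (untreated) and 5.08 (treated) on the log2 scale, and 8 of 10 MEK output genes listed further on, among them ETV4, ETV5 and DUSP6, were lower with selumetinib in both fractions. By the titles, CCNB1 mRNA would be lower in CCNB1-positive cells by those amounts, and the 8 MEK output genes would be higher with the MEK inhibitor and EGR1 lower. These values did not choose the groups. The labels also give RPMI-1640 as the medium, whereas the study methods give McCoy's 5A.

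Aurora A, the product of AURKA, acts at centrosomes and spindle poles. TPX2 binds it, switches it on and holds it on spindle microtubules, and BORA is the cofactor through which it activates the mitotic kinase PLK1 before mitosis. Aurora B works inside the passenger complex, where INCENP is the scaffold and kinase activator, and survivin (BIRC5) and borealin (CDCA8) bring the complex to the inner centromere. HASPIN phosphorylates histone H3 there, and survivin binds that mark. Transcripts of these genes are known to accumulate in G2 and mitosis, the part of the cycle in which cyclin B1 protein is present.

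A shared layout of G2 and mitotic gene promoters is a CCAAT box upstream of a CHR element, so these letters were looked up in the RefSeq promoter windows (GRCh38.p14, 250 bases before to 50 after a start). Windows were matched for 4 of the 8 genes, CDCA8, INCENP, BORA and AURKB, the last with 2 windows, and not for AURKA, TPX2, BIRC5 and HASPIN. Both strands were searched. TTTGAA or TTCGAA (CHR) was found in 3 of 4, against 16.4% of all 35116 promoters, and CCAAT in 4 of 4, against 34.6%. Of the E2F-like words TTTGGCGC, TTTCCCGC, TTTGGCGG and TTTCGCGC, 0 of 4 held any, against 3.35%. The 3 genes with a CHR word are shown, each as 150 bases of the plus strand, which is the gene's strand, at chr1:37692366-37692515 for CDCA8, chr11:62123861-62124010 for INCENP and chr13:72727773-72727922 for BORA. The annotated gene covers the last 35 bases of the CDCA8 stretch, the last 13 of the INCENP stretch and all 150 of the BORA stretch. Capitals mark the CHR and CCAAT words, CCAAT on the minus strand reading as ATTGG.
CDCA8: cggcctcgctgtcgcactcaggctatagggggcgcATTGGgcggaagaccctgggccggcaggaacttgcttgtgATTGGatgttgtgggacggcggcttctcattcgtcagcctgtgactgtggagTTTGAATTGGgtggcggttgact
INCENP: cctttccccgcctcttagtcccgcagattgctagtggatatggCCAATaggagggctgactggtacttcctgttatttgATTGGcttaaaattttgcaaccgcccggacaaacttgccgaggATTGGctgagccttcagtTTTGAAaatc
BORA: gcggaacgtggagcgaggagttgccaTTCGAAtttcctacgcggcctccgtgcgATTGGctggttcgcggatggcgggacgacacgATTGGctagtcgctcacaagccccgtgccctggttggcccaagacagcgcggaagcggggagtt

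In CDCA8 the word TTTGAA ended 18 bases before the RefSeq start and shared 1 base with a CCAAT word on the minus strand. In INCENP it ended 5 bases before the start. BORA held TTCGAA ending 119 bases before the start, and a TTTGAA ending 172 bases before it that lies outside the stretch shown. In CDCA8 and INCENP the CHR word was downstream of at least 1 CCAAT word, while in BORA it was upstream of both. These matches describe the letters of the windows and nothing more.

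Depth was 12696860 to 23916160 reads on genes per library, lowest in the selumetinib-treated CCNB1-negative group. No replicate pair was alike within counting noise (chi-square per gene of 15.6 to 30.2), so no library looked deposited in duplicate, which does not show that the cultures were separate. All 6 epithelial markers checked (EPCAM, CDH1, KRT18, KRT8, CDX2 and VIL1) were detected in every library. Their sum was 9783 to 10779 RPM (reads scaled to library size) in untreated and 4021 to 7475 RPM in treated libraries, most of it KRT8 and KRT18. The markers did not move together. Log2 differences with selumetinib, CCNB1-negative cells first, were -1.34 and -0.83 for EPCAM, -1.11 and -0.61 for KRT18 and -1.22 and -0.68 for KRT8. They were 0.33 and 0.30 for CDH1, 1.06 and 1.14 for CDX2 and 0.73 and 0.58 for VIL1. The summed level of 6 blood, vessel and stromal markers was 1.62 to 2.23 RPM in untreated and 3.32 to 6.68 RPM in treated libraries, and COL1A1 among them reached 107 reads. CD3E and COL1A2 had at most 1 read in any library. MALAT1 took 0.3% to 0.39% of reads in untreated and 2.01% to 4.42% in treated libraries. The part of these shifts in the results was not tested.

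Values are given below as log2 of reads, every library scaled by the authors to the largest one, with replicate 1 before replicate 2. Tests used limma on the 14219 genes that averaged 1 RPM or more (a log2 value of 4.58) over all libraries, a filter that all 8 members passed. HASPIN passed only through the groups where it was higher, its mean in treated CCNB1-negative cells being 1.71. A gene was called at an adjusted p under 0.05.

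AURKA (ENSG00000087586, chr20:56369389-56392337, minus strand, GRCh38) read 10.89 and 10.65 in untreated CCNB1-negative cells, 13.14 and 13.26 in untreated CCNB1-positive cells, 7.71 and 7.56 in treated CCNB1-negative cells and 12.22 and 12.12 in treated CCNB1-positive cells. TPX2 (ENSG00000088325, chr20:31739271-31801805, plus strand) read 11.95 and 11.66, 13.76 and 13.84, 8.29 and 7.89, and 12.82 and 12.64 in the same order of groups. In both genes untreated CCNB1-positive cells were highest, treated CCNB1-positive cells second and treated CCNB1-negative cells lowest. BORA (ENSG00000136122, chr13:72727749-72756198, plus strand) read 9.32 and 8.85, 10.88 and 10.96, 7.85 and 7.57, and 10.66 and 10.78. Its order of groups was the same, but the 2 CCNB1-positive groups lay side by side.

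AURKB (ENSG00000178999, chr17:8204733-8210600, minus strand) read 10.27 and 9.73, 11.83 and 11.70, 6.80 and 6.38, and 11.13 and 11.36. INCENP (ENSG00000149503, chr11:62123998-62153169, plus strand) read 10.18 and 9.06, 11.54 and 11.39, 7.59 and 7.66, and 10.95 and 10.89. The 1.12 between the untreated CCNB1-negative INCENP libraries was the widest replicate gap of any member outside HASPIN. BIRC5 (ENSG00000089685, chr17:78214186-78225636, plus strand) read 10.87 and 10.98, 12.15 and 12.23, 7.51 and 7.27, and 11.56 and 11.75. CDCA8 (ENSG00000134690, chr1:37692481-37709719, plus strand) read 10.37 and 9.74, 11.87 and 12.03, 7.51 and 7.50, and 11.49 and 11.40. All 4 passenger subunits kept the group order of AURKA. The share of all genes with that order was not computed.

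HASPIN (ENSG00000177602, chr17:3723903-3726699, plus strand, a gene of 1 exon) was the exception in level and in order. It read 6.95 and 6.96, 7.27 and 7.52, 2.65 and 0.76, and 6.15 and 6.36, which correspond to 114 and 99, 154 and 167, 4 and 1, and 63 and 52 reads. Here the treated CCNB1-positive libraries lay below the untreated CCNB1-negative ones, while in the other 7 genes they lay above them. HASPIN sits inside ITGAE on the opposite strand, and BORA overlaps the last part of DIS3 on the opposite strand over 4030 bases, with exons in common in both pairs. ITGAE had 534 to 614 reads in untreated and 187 to 443 in treated libraries, and DIS3 had 1548 to 1998 and 664 to 953. Whether strand was used in counting is not given in the sources used here, so reads in the shared exons cannot be told apart.

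**Figure D1:**
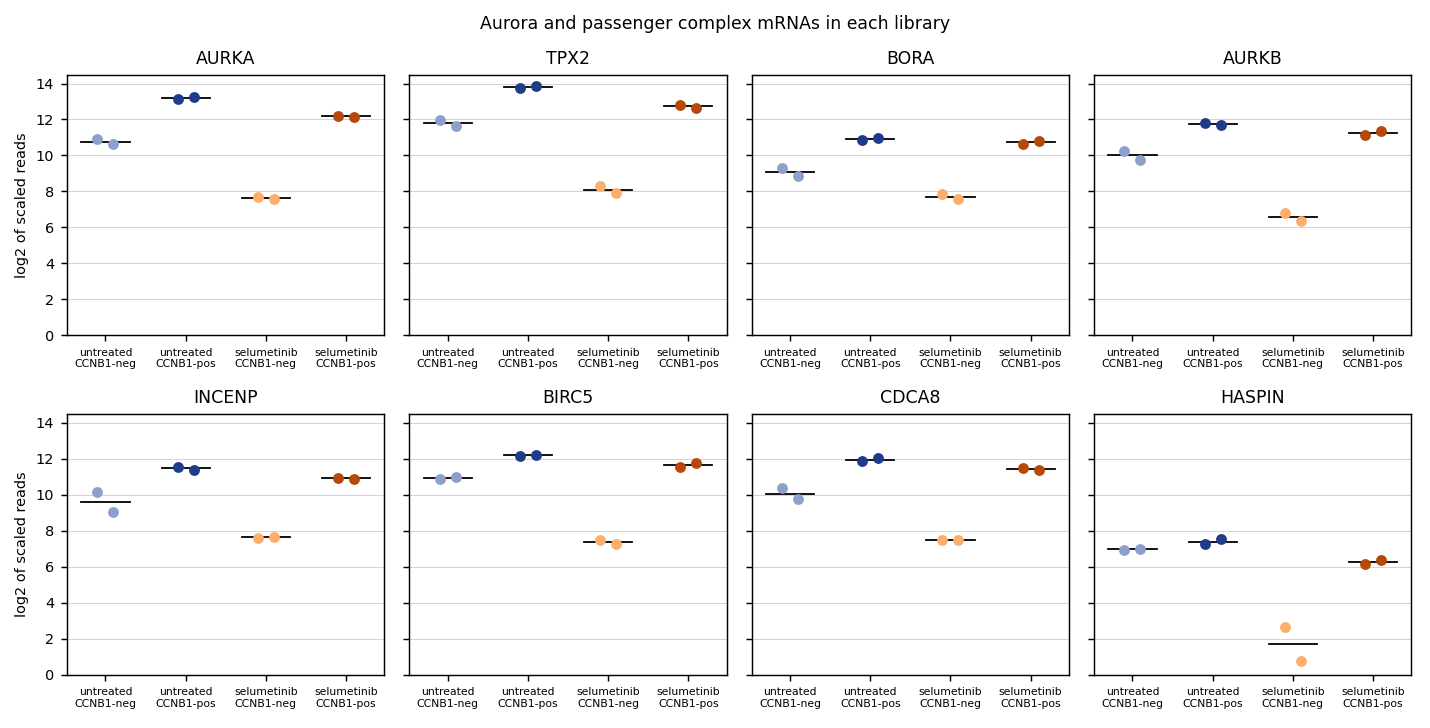
Deposited log2 values (log2 of reads scaled to the largest library) of the 8 genes in each library, by group, with 2 points per group and the group mean as a line. In 7 genes the untreated CCNB1-positive group is highest and the treated CCNB1-negative group lowest with the treated CCNB1-positive group second, while in HASPIN the untreated CCNB1-negative group is second.

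Per kilobase of exon (RPKM, exons of the gene merged, group means), TPX2 and AURKA were the most abundant of the 8 in untreated CCNB1-positive cells, at 165 and 134, ahead of CDCA8 at 68.5, AURKB at 64.9 and BIRC5 at 51.2. CDCA8 and AURKB did not differ beyond their replicate spread, nor did INCENP and BORA, at 26.5 and 25.4, and HASPIN was lowest at 2.51. In treated CCNB1-negative cells the levels closed up to between 1.80 for AURKB and 3.16 for TPX2 and CDCA8, with HASPIN at 0.0488. By the longest transcript instead of merged exons, AURKA was first in untreated CCNB1-positive cells at 175 and AURKB rose to 116, so the order among abundant members depends on the length used.

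The first comparison asked how these transcripts differed with MEK inhibition in the fraction sorted as CCNB1-negative. CCNB1 mRNA itself averaged 153 RPM in the untreated and 7.94 RPM in the treated CCNB1-negative libraries. All 8 genes fell in CCNB1-negative cells, with log2 differences from -5.25 to -1.38 and a median of -3.28 against 0.05 over all genes tested. The share of genes called lower in this comparison was 35.8%, and 38.2% were called higher. On the Aurora A side AURKA fell by 3.14 ± 0.15 (SE, 8.82-fold), TPX2 by 3.71 ± 0.17 (13.1-fold) and BORA by 1.38 ± 0.18 (2.6-fold), with adjusted p-values of 1.5e-09, 1.3e-09 and 9.3e-06 (limma). Within the passenger complex BIRC5 fell by 3.54 ± 0.15 and AURKB by 3.41 ± 0.20, whereas CDCA8 fell by 2.55 ± 0.18 and INCENP by 1.99 ± 0.26, with adjusted p-values of 8.2e-10, 7.3e-09, 4.6e-08 and 8.6e-06 (limma). Among all 14219 genes TPX2 ranked 52nd, BIRC5 84th and AURKB 95th from the lowest, but INCENP 785th and BORA 1871st.

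HASPIN fell by 5.25 ± 0.49 (SE) in CCNB1-negative cells (limma, adjusted p = 4.3e-07), the second lowest difference of all genes tested on this scale. That value rests on 5 reads in the treated pair against 213 in the untreated pair. Without treated CCNB1-negative replicate 1 or 2 it was -6.19 or -4.31, and with 1 RPM added before the log2 it was -2.41, smaller than the -3.37 of BIRC5 and the -3.13 of AURKB on that scale. Scaled for depth, the read ratio was 27.7 (exact 95% interval 11.7 to 86.1, which covers counting error only), so the size of the fall is loosely fixed. Bulk RNA gives the sum over a sorted fraction, in which fewer cells carrying a transcript and less RNA per cell cannot be told apart.

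In CCNB1-positive cells the same treatment moved the 8 genes far less, with log2 differences between -1.14 and -0.21 and a median of -0.54. Here 5 of the 8 fell, beside 27.3% of all genes called lower and 38% called higher. AURKA fell by 1.03 ± 0.15 (2.04-fold) and TPX2 by 1.07 ± 0.17 (2.1-fold), with adjusted p-values of 3.8e-05 and 8.7e-05 (limma). BIRC5, AURKB and CDCA8 fell by 0.53, 0.52 and 0.50, with adjusted p-values of 0.006, 0.032 and 0.029 (limma). The differences that did not pass were -0.54 for INCENP (adjusted p = 0.078, limma), -1.14 for HASPIN (adjusted p = 0.054) and -0.21 for BORA (95% interval -0.59 to 0.18, adjusted p = 0.32).

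The calls in CCNB1-positive cells other than AURKA and TPX2 depended on scaling and on single libraries. The median difference of all genes was 0.17 with the deposited scaling and -0.08 after quantile normalization, and relative to it the median of the members was -0.70 and -0.26. After quantile normalization AURKB, BIRC5 and CDCA8 stood at -0.30, -0.25 and -0.23 (adjusted p = 0.21, 0.15 and 0.28, limma) and HASPIN at -1.97 (adjusted p = 0.00036). Without untreated CCNB1-positive replicate 2, or without treated CCNB1-positive replicate 1, AURKA and TPX2 alone remained called, with the 3 subunits between -0.58 and -0.40 and adjusted p-values from 0.054 to 0.18 (limma). AURKB was also lost without untreated CCNB1-positive replicate 1 (-0.45, adjusted p = 0.13) and CDCA8 without treated CCNB1-positive replicate 2 (-0.45, adjusted p = 0.12). Both also missed the threshold with no filter on low values (adjusted p = 0.062 and 0.056, limma) and with limma-voom on whole reads (adjusted p = 0.054 and 0.069). INCENP passed instead, at an unmoved -0.54, without untreated CCNB1-negative replicate 1 or 2 (adjusted p = 0.007 and 0.0066), and HASPIN at -1.14 without treated CCNB1-negative replicate 1 or 2 (adjusted p = 0.0045 and 0.003); the fit then no longer held their widest replicate gaps. Both also passed when only the CCNB1-positive groups were fitted (adjusted p = 0.0017 and 0.001, limma), and HASPIN with limma-voom (-1.04, adjusted p = 0.0067) or with 1 RPM added before the log2 (-0.94, adjusted p = 0.001).

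**Figure D2:**
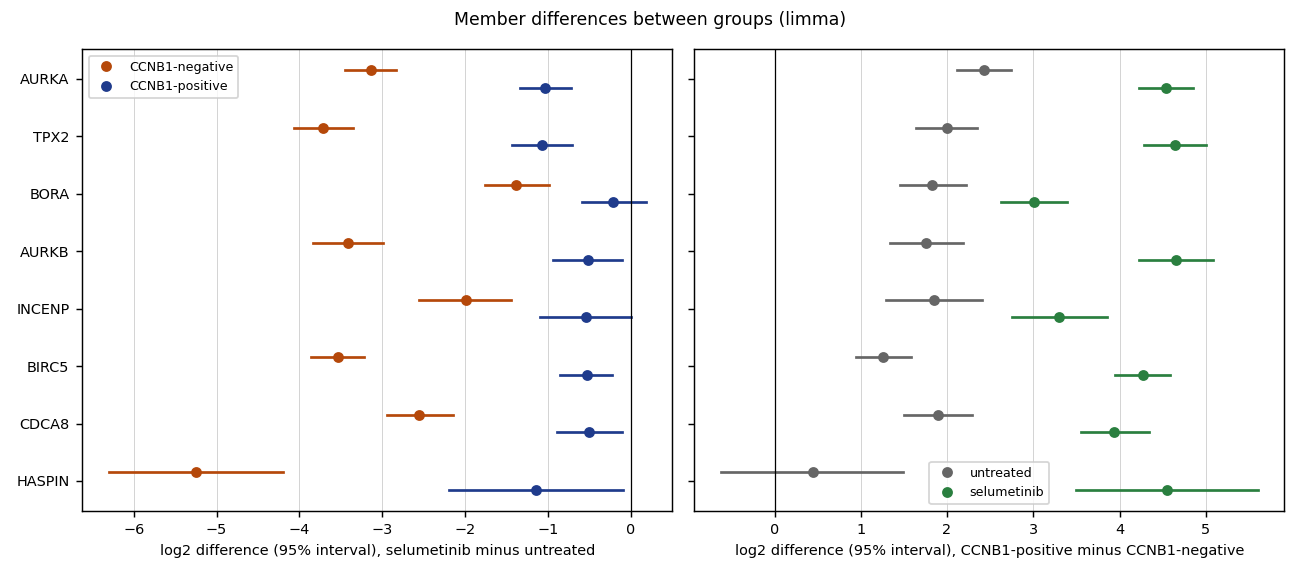
Log2 differences of the 8 genes with 95% intervals from limma, on the left selumetinib minus untreated in each fraction and on the right CCNB1-positive minus CCNB1-negative in each treatment. On the left every CCNB1-negative value lies at or below -1.38 while the CCNB1-positive values lie between -1.14 and -0.21. On the right every treated value lies at or above 3.01, and HASPIN in untreated cells is the value whose interval spans 0.

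The direct test of the difference between the 2 responses, the interaction, was positive and called for all 8 genes, beside 4.99% of all genes called in that direction. BIRC5 differed by 3.01 ± 0.21 (SE) on the log2 scale (adjusted p = 4e-06, limma) and AURKB by 2.90 ± 0.28 (adjusted p = 1.4e-05). HASPIN stood at 4.11 ± 0.69 (adjusted p = 0.002), but its place among the members was not fixed. It was 3.40 after quantile normalization, under AURKB at 3.64 and BIRC5 at 3.59, and 1.5 with 1 RPM added, under BIRC5 at 2.83 and AURKB at 2.61. Without treated CCNB1-negative replicate 1 or 2 it was 5.05 or 3.17 (adjusted p = 5.7e-05 and 0.00089, limma). TPX2, AURKA and CDCA8 followed at 2.65, 2.11 and 2.05 (adjusted p = 8.5e-06, 1.5e-05 and 0.00015, limma). INCENP at 1.45 and BORA at 1.17 were smallest (adjusted p = 0.031 and 0.012, limma). The calls of these last 2 are fragile. INCENP was lost without untreated CCNB1-positive replicate 2 or without any 1 of the 4 treated libraries (1.38 to 1.49, adjusted p from 0.052 to 0.1, limma), and also with no filter on low values (adjusted p = 0.12) or limma-voom (1.43, adjusted p = 0.062). BORA was lost without untreated CCNB1-negative replicate 1 (0.94, adjusted p = 0.052), treated CCNB1-negative replicate 2 (1.03, adjusted p = 0.051) or treated CCNB1-positive replicate 2 (1.11, adjusted p = 0.063).

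Between fractions of untreated cells, 7 of the 8 genes were higher in CCNB1-positive cells, where 1.36% of all genes were called higher and 1.51% lower. Treating same-numbered libraries of a treatment as linked raised these to 664 and 1384 of the 14219 genes. AURKA led with a log2 difference of 2.43 ± 0.15 (SE, 5.38-fold, adjusted p = 1.1e-06, limma), the 11th highest of 14219. TPX2 was 3.99-fold higher. On the log2 scale CDCA8 was higher by 1.89, INCENP by 1.85, BORA by 1.83 and AURKB by 1.76, with adjusted p-values, TPX2 included, between 8e-06 and 0.00069 (limma). BIRC5 was higher by 1.26 ± 0.15 (adjusted p = 0.00014). HASPIN, at 0.44 with a 95% interval of -0.62 to 1.49, did not pass (adjusted p = 0.81, limma).

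After selumetinib all 8 genes were higher in CCNB1-positive than in CCNB1-negative cells, beside 13.8% of all genes. The log2 differences ran from 3.01 for BORA to 4.66 for AURKB, with a median 4.38 above that of all genes, and the largest adjusted p was 1.5e-05 (limma). AURKB, TPX2 and AURKA, at 4.66, 4.64 and 4.54, were 25.2-, 25- and 23.3-fold higher and ranked 27th, 28th and 32nd of 14219. HASPIN stood at 4.55, but at 5.49 or 3.60 without treated CCNB1-negative replicate 1 or 2 and at 1.85 with 1 RPM added. Its read ratio was 18 (exact 95% interval 7.5 to 56.5, counting error only), from 115 against 5 reads. CCNB1 mRNA, the transcript of the sorting marker, differed by 2.09 in untreated and 5.08 in treated cells.

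**Figure D3:**
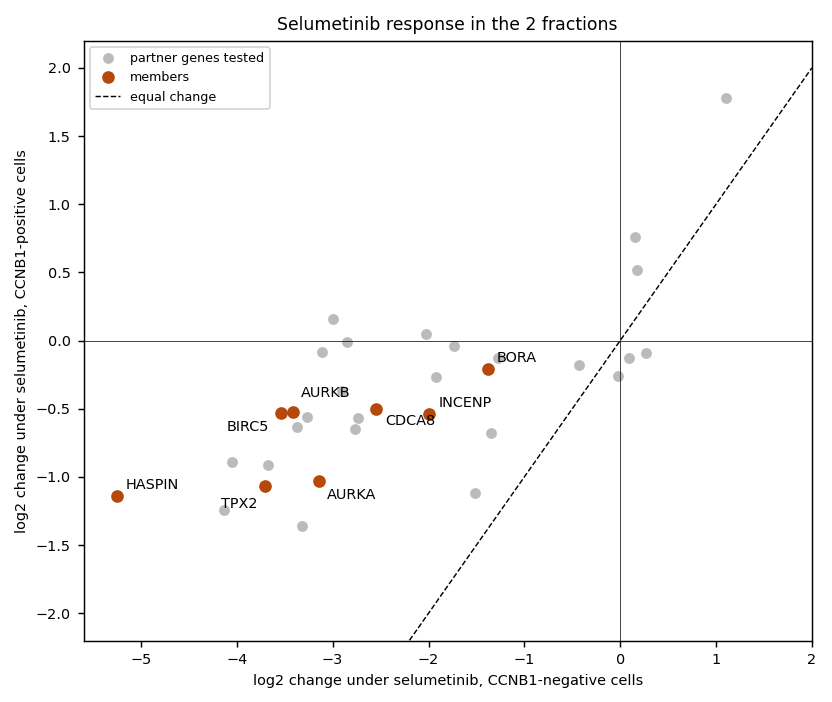
Log2 change under selumetinib in CCNB1-negative cells (x) against CCNB1-positive cells (y) for the 8 members and the 25 tested partner genes, the dashed line marking equal change. All 8 members lie above the line and at or left of -1.38, and the partner at the upper right is NEDD9 at 1.11 and 1.78.

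Ratios between members within a library do not depend on how libraries were scaled, and they showed which members did not keep step. AURKA relative to TPX2 moved over 0.72, the least of the pairs computed, and its log2 read ratio was lowest in the untreated CCNB1-negative pair, down to -1.06, apart from the other 6 libraries at -0.62 to -0.33. AURKA relative to BORA moved over 2.44, from 1.57 and 1.80 in untreated CCNB1-negative and 2.26 and 2.30 in untreated CCNB1-positive cells to -0.14 and -0.01 in treated CCNB1-negative and 1.56 and 1.35 in treated CCNB1-positive cells. The treated CCNB1-negative pair thus had about as many BORA as AURKA reads, and no other library did.

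In the passenger complex, AURKB relative to INCENP was 0.09 and 0.67, 0.29 and 0.31, -0.79 and -1.28, and 0.18 and 0.47 in the order of groups used above. AURKB relative to CDCA8 was -0.71 and -1.13 in treated CCNB1-negative cells and between -0.36 and 0 elsewhere. In both ratios the treated CCNB1-negative libraries were lowest and stood apart from the other 6. AURKB had fewer reads than INCENP in that pair alone, but fewer than CDCA8 in all 8 libraries. AURKB relative to BIRC5 set no single group apart, but was -1.25 to -0.60 in CCNB1-negative and -0.53 to -0.32 in CCNB1-positive libraries. INCENP relative to CDCA8 was above 0 in the treated CCNB1-negative pair alone, at 0.08 and 0.15. With 2 libraries a group these ratios are given without a test. TPX2 stayed within -0.35 to 0.67 of CCNB1 in all 8 libraries.

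**Figure D4:**
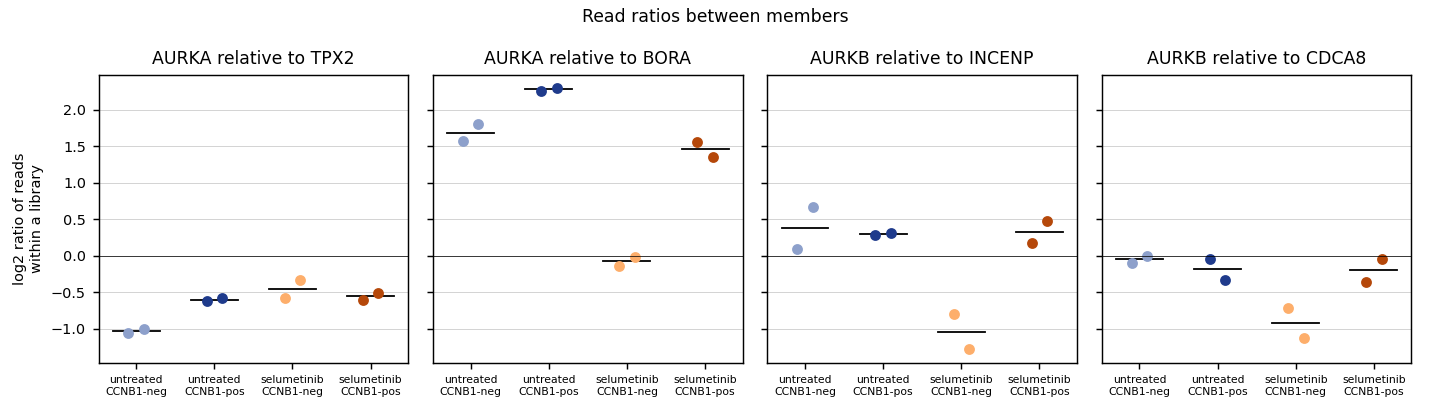
Log2 ratio of reads between pairs of members within each library, by group, with 2 points per group and the mean as a line. The treated CCNB1-negative libraries are lowest in AURKA relative to BORA (-0.14 and -0.01), in AURKB relative to INCENP (-0.79 and -1.28) and in AURKB relative to CDCA8 (-0.71 and -1.13), but not in AURKA relative to TPX2.

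Of 26 listed partners of these kinases 25 were tested. The list was chosen with earlier results of these data known, so its counts are descriptions. AURKC, the germline Aurora kinase, fell under the filter with 7 to 29 reads per library. In CCNB1-negative cells selumetinib lowered 18 of the 25 and raised 1, beside 35.8% of all genes lower and 38.2% higher, with a median log2 difference of -2.03. The lowest log2 differences were -4.13 for DLGAP5, a spindle protein and Aurora A substrate, -4.05 for BUB1, the kinase that recruits shugoshin to centromeres, and -3.67 for HMMR, a TPX2-binding spindle protein, with adjusted p-values from 7.2e-10 to 3.1e-08 (limma). NEDD9, a scaffold that activates Aurora A, rose by 1.11 (adjusted p = 3.2e-05, limma). The 6 that did not pass were CEP192 at 0.15, AJUBA at -0.43, PPP6C at -0.02, FZR1 at 0.27, CDC25B at 0.09 and PDS5B at 0.18.

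In CCNB1-positive cells 10 of the 25 partners fell and 3 rose, beside 27.3% of all genes lower and 38% higher, the median being -0.26. The share that fell was above that of all genes and the share that rose was below it, and neither was tested. PLK1, the kinase that BORA presents to Aurora A, fell by 1.36, DLGAP5 by 1.24 and the phosphatase subunit PPP1CC by 1.12, and NEDD9 at 1.78, the centrosomal CEP192 at 0.76 and the cohesin regulator PDS5B at 0.52 rose (limma, adjusted p from 1.3e-06 to 0.0081). The interaction was positive and called for 16 of 25 and did not pass for the other 9, beside 4.99% of all genes positive, the lowest values being -0.36 for FZR1, -0.24 for PPP6C and -0.21 for CDC25B (adjusted p = 0.43, 0.56 and 0.6, limma). The largest were 3.16 for BUB1, 3.16 for SGO1, the centromere protector, and 3.03 for NDC80, which binds kinetochore microtubules (limma, adjusted p from 4.1e-06 to 3e-05).

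Between untreated fractions 18 of the 25 partners were higher in CCNB1-positive cells, beside 1.36% of all genes, and NEDD9 had a log2 difference of -1.13 (adjusted p = 0.001, limma). KIF20A, the kinesin that carries the passenger complex to the anaphase midzone, differed most at 2.81, ahead of PLK1 at 2.67 and HMMR at 2.26 (limma, adjusted p from 4.3e-06 to 5.3e-06). PPP6C, a phosphatase that acts on Aurora A, stood at -0.03 and PDS5B at 0.01. In treated cells 21 of the 25 were higher, beside 13.8% of all genes, led by KIF20A at 5.55, HMMR at 5.02 and DLGAP5 at 4.91 (limma, adjusted p from 1.8e-10 to 1.5e-08). The 4 that did not pass there were NEDD9 at -0.46, PPP6C at -0.27, PDS5B at 0.35 and AJUBA at 0.81.

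Genes read as output of MEK signalling were looked at beside the treatment label. In both fractions 8 of 10 fell: the log2 differences, CCNB1-negative cells first, were -3.10 and -2.34 for ETV4, -2.95 and -2.02 for ETV5, -1.75 and -1.06 for DUSP6, -1.72 and -1.73 for PHLDA1, -1.13 and -1.64 for DUSP4, -1.14 and -0.71 for SPRY2, -1.13 and -1.20 for SPRY4, and -1.06 and -1.29 for FOSL1, with adjusted p of at most 0.008 (limma). EGR1 rose by 1.17 and 1.58, and SPRED2 stood at 0.72 and 0.45 (adjusted p = 0.0058 and 0.064, limma). Their interaction values ran from -0.51 to 0.93, with adjusted p of at least 0.18 (limma).

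Across the 8 libraries, which share groups and depth, the profile of AURKB was closest to the mean of the other 7 members (Pearson r = 0.998), with TPX2 also at 0.998, AURKA at 0.993, BIRC5 at 0.991, CDCA8 at 0.99, INCENP at 0.972, BORA at 0.953 and HASPIN at 0.910. Among all other genes tested, ANLN, HMMR, RACGAP1, KIF11, KIF18A, KIFC1, CDC20 and ARHGAP11A had the profiles most like the mean of the 8, with r from 0.9977 to 0.9989. These correlations mostly follow the 4 group means and carry no test.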

How the data were processed

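Per the labels and the study methods, trimming was by Trim Galore 0.5.0, alignment to GRCh38 by HISAT2 2.1.0 and gene quantification by SeqMonk 1.47.0, and the authors' deposited values are log2 reads normalized for library total. The annotation release is not given in the sources used here. Subtracting a constant per library gave whole reads (within 0.01) for 100% of genes with reads, and genes without a read stood at 0.9 reads. All 8 value columns were used.

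Groups follow the sample descriptions. The planned option for log2 values was used: limma 3.58.1 (R 4.3.3) with a mean-variance trend, all 4 groups in 1 model, 5 contrasts, 14219 genes averaging 1 RPM or more, and Benjamini-Hochberg adjustment over all of them. The authors' own test was DESeq2. Gene positions in the table are those of GENCODE release 44, in which 99.2% of identifiers were found. KIF23, listed under a clone name, was matched by gene ID. Remaining steps used Python 3.11.15, pandas 2.3.3, numpy 2.4.6, scipy 1.17.1 and matplotlib 3.10.9.

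The members and gene lists were chosen with earlier results of these data known, so list counts are descriptions. Named were all members, CCNB1, the MEK output genes, the 3 most negative and 3 most positive partners per contrast with every partner that did not pass in CCNB1-negative cells, and the 8 most similar profiles; AURKC and the partners that did not pass between treated fractions were named after their values were seen. Alternatives were an adjusted p of 0.01, a 4-fold requirement, no filter or one of 10 RPM, quantile normalization, 1 RPM added before the log2, limma-voom on recovered reads, replicate blocks, only the groups compared, and leaving out each library.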

Additional observations from a re-analysis of the deposited data

Results flagged for a closer look

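The response to selumetinib differed between CCNB1-negative and CCNB1-positive cells, by the interaction test in limma, for all 8 genes. Of all genes tested, 4.99% were called in the same, positive direction. The log2 differences between the responses were 4.11 for HASPIN, 3.01 for BIRC5, 2.90 for AURKB, 2.65 for TPX2, 2.11 for AURKA, 2.05 for CDCA8, 1.45 for INCENP and 1.17 for BORA, each with the fall in CCNB1-negative cells the larger one. INCENP and BORA lost the call when some single libraries were left out, and HASPIN had only 4 and 1 reads in treated CCNB1-negative cells.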

How the results depend on the processing

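Over 707 checks of single member differences, 654 kept direction and call, 44 lost the call, 9 gained it and 0 turned sign. Counted among them are the adjusted p of 0.01 and the 4-fold requirement. Those are not refits: they keep the main differences and could not turn a sign. Another filter, a block, fitting only the groups compared, or leaving out a library outside a contrast also left a member's difference unmoved. Such checks could not turn a sign either, and tested the call alone. In CCNB1-positive cells 5 members fell, but 3 did at an adjusted p of 0.01, 3 without a filter on low values, 3 after quantile normalization and 0 with a 4-fold change also required, and leaving out single libraries gave 2 to 6. Of all 14219 genes, 3888 were called lower in the main fit, 3044 at an adjusted p of 0.01 and 4482 after quantile normalization. With a 4-fold change also required it was 102, and without a filter 3623 of 31381. With a 4-fold change required, 1 of 7 members, AURKA, stayed called between untreated fractions, beside 31 of all 14219 genes. The causes of these moves were not tested. The other counts stayed within 1.5 times: 6 to 8 for the fall in CCNB1-negative cells, 7 to 8 between treated fractions and 6 to 8 for the interaction. HASPIN was not tested under the filter of 10 RPM.

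In the replicate block fit, the counts of members called were 8, 5, 7, 8 and 8 for the 5 contrasts, as without it. The block by treatment and replicate number together (correlation within a block of 0.56) gave the same counts of members. Of all 14219 genes, however, it called 664 instead of 194 higher between untreated fractions and 3830 instead of 1958 between treated fractions. Between untreated fractions it called 1384 instead of 214 lower. For the interaction it called 2733 instead of 709. The shares of all genes given above come from the fit without a block. Same-numbered libraries deviated together within a treatment (r = 0.35 in untreated and 0.43 in treated cells) but not across treatments (r from -0.09 to 0.08), so the numbers were not taken to pair all samples. Depth limits HASPIN most, and 2 libraries per group limit every estimate of spread.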

Other observations

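The 8 most similar profiles include CDC20, which activates the ubiquitin ligase that ends mitosis, and ANLN and RACGAP1, which act in cytokinesis. Their reads ran from 87 to 10333, 97 to 5269 and 82 to 3405 across the 8 libraries, and 52 genes had a correlation above 0.99 with the mean profile of the members. AURKC had 16 and 7 reads in untreated CCNB1-negative, 17 and 9 in untreated CCNB1-positive, 9 and 9 in treated CCNB1-negative and 29 and 14 in treated CCNB1-positive libraries.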
